A study of Mus musculus with 20 samples.

Results

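MHC class II presentation was followed through 9 genes: the chains of the classical class II molecules (H2-Aa, H2-Ab1 and H2-Eb1), the invariant chain Cd74, the peptide editor H2-DM (H2-DMa and H2-DMb1), the modulator H2-O (H2-Oa and H2-Ob) and the transactivator Ciita, which the array design lists as C2ta. Every probe carrying one of these names was taken, which gave 15 of 41174 probes (24 spots) and 9 of 27845 gene names. No probe was picked from a gene by its values, but the genes were chosen with earlier results of these data known. All 15 passed the filter on dim probes, were well above background in Cy5 on all 20 arrays and were saturated on none.

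The study sampled whole blood of 4 female C57Bl/6 mice, numbered 305, 310, 315 and 320, on day 0, before a subcutaneous injection of Hepa1-6 cells, a mouse hepatoma line, and again on days 10, 15, 20 and 25. Each of the 20 two-colour arrays held 1 blood sample in Cy5 and reference RNA from untreated blood of female C57Bl/6 mice in Cy3. There were 4 arrays per day and no tumour-free mice bled in parallel, so time, repeated bleeding and tumour growth cannot be told apart. The age of the mice and the size of the tumours are not given in the sources used here. A level is log2(Cy5/Cy3), where 0 is the level of the reference blood, and a change is a difference between day means on that scale.

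Class II molecules carry peptides from endosomes to the surface of B cells, dendritic cells and some monocytes, where CD4 T cells read them. An alpha and a beta chain assemble on the invariant chain, cathepsins trim that chain to a short peptide, H2-DM exchanges it for antigen, and H2-O, found mainly in B cells, holds H2-DM back. Ciita is the coactivator that switches these genes on through a complex bound at shared promoter boxes. In blood most class II RNA is usually carried by B cells.

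Class II promoters are known for the X and Y boxes through which the Ciita complex acts, and stretches around a match to the Y box are shown for the 5 members that have one 43 to 61 bases before the start. RefSeq windows of GRCm38.p6, from 250 bases before to 50 after each start, were at hand for 6 of the 9 genes (7 windows). Capitals mark the letters ATTGG of the Y box and, where it lay 15 to 35 bases upstream on the same strand, ACNGATG, taken as a core of the X box. Each stretch is written 5′ to 3′ on the gene's strand, runs from 50 bases before to 20 after the Y box, and lies upstream of the start.
H2-Eb1 (chr17:34305758-34305832, plus strand): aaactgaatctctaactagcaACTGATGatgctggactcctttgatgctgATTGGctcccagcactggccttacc
H2-DMb1 (chr17:34153080-34153154, plus strand): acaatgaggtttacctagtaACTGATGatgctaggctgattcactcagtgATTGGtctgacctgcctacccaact
H2-Aa (chr17:34287847-34287921, minus strand): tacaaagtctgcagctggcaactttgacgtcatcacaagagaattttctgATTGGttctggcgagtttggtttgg
H2-Oa (chr17:34092286-34092360, plus strand): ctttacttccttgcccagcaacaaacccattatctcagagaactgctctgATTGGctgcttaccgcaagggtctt
H2-Ob (chr17:34238798-34238872, plus strand): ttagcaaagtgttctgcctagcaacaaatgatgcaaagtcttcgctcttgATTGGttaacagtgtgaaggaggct

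In these 5 genes the first base of ATTGG lay 43 bases (H2-Oa) to 61 bases (H2-DMb1) before the start. H2-DMa had no ATTGG in 1 window and one 198 bases upstream in the other. ATTGG on either strand stood in 37.4% of all 32851 promoter windows and ACNGATG on either strand in 9.85%. Both on 1 strand at the spacing above stood in 0.174% of all windows, and among the members in the windows of H2-Eb1 (22 bases apart) and H2-DMb1 (23 bases apart). The 2 motifs share no letters where they were found at that spacing. The letters describe the windows alone: of the 2 genes that hold both boxes in this spelling, H2-Eb1 had its lowest day mean on day 15 and both H2-DMb1 probes on day 10.

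Slide, and in part scan date, differed between the days. This can bear on all results, and how far it did was not tested. Each day's arrays lay on 1 slide of their own, so slide and day cannot be told apart. By the headers, day 0 and day 10 were each scanned on a date of their own, and days 15, 20 and 25 shared a date. The headers refer to a grid file for the arrays of day 15 alone, and its part in the day 15 values was not tested. The median Cy5 signal above local background per array was 50.1 to 69.6 on day 0, 17.0 to 21.1 on day 10, 13.0 to 16.8 on days 15 and 20, and 21.9 to 29.7 on day 25. Loess normalization within each array set the 2 dyes against each other, and the comparisons with day 0 depend on it: with median centring in its place all 15 class II probes lay below 0 on days 10, 15 and 20 (median change -1.38, -1.43 and -0.80, against -0.40, -0.29 and -0.22 for all probes), and 8 lay above 0 on day 25. A change counted as called when limma's moderated test over all 20920 kept probes gave a Benjamini-Hochberg adjusted p under 0.05. The 4 mice are separate animals, each bled on all 5 days.

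Among the class II genes, H2-Eb1, Cd74, both H2-Aa probes, 2 of 4 H2-Ab1 probes and 1 H2-Oa probe had their lowest day mean on day 15 and their highest on day 25, and the other probes took other courses. Over the 5 days 5 of the 15 probes differed in limma's F test, against 27% of all kept probes: those of H2-Eb1 (adjusted p = 0.00106), Cd74 (adjusted p = 0.0130), 1 of 2 for H2-Oa (adjusted p = 0.00223), 1 of 2 for H2-Aa (adjusted p = 0.0165) and 1 of 2 for H2-DMb1 (adjusted p = 0.0262). For 9 of the 15 probes the mean was lowest on day 15, and for 10 it was highest on day 25. None of the 4 H2-Ab1 probes, nor those of H2-DMa, H2-Ob and Ciita, passed. In whole blood fewer cells of a type and less RNA per cell cannot be told apart.

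**Figure D1:**
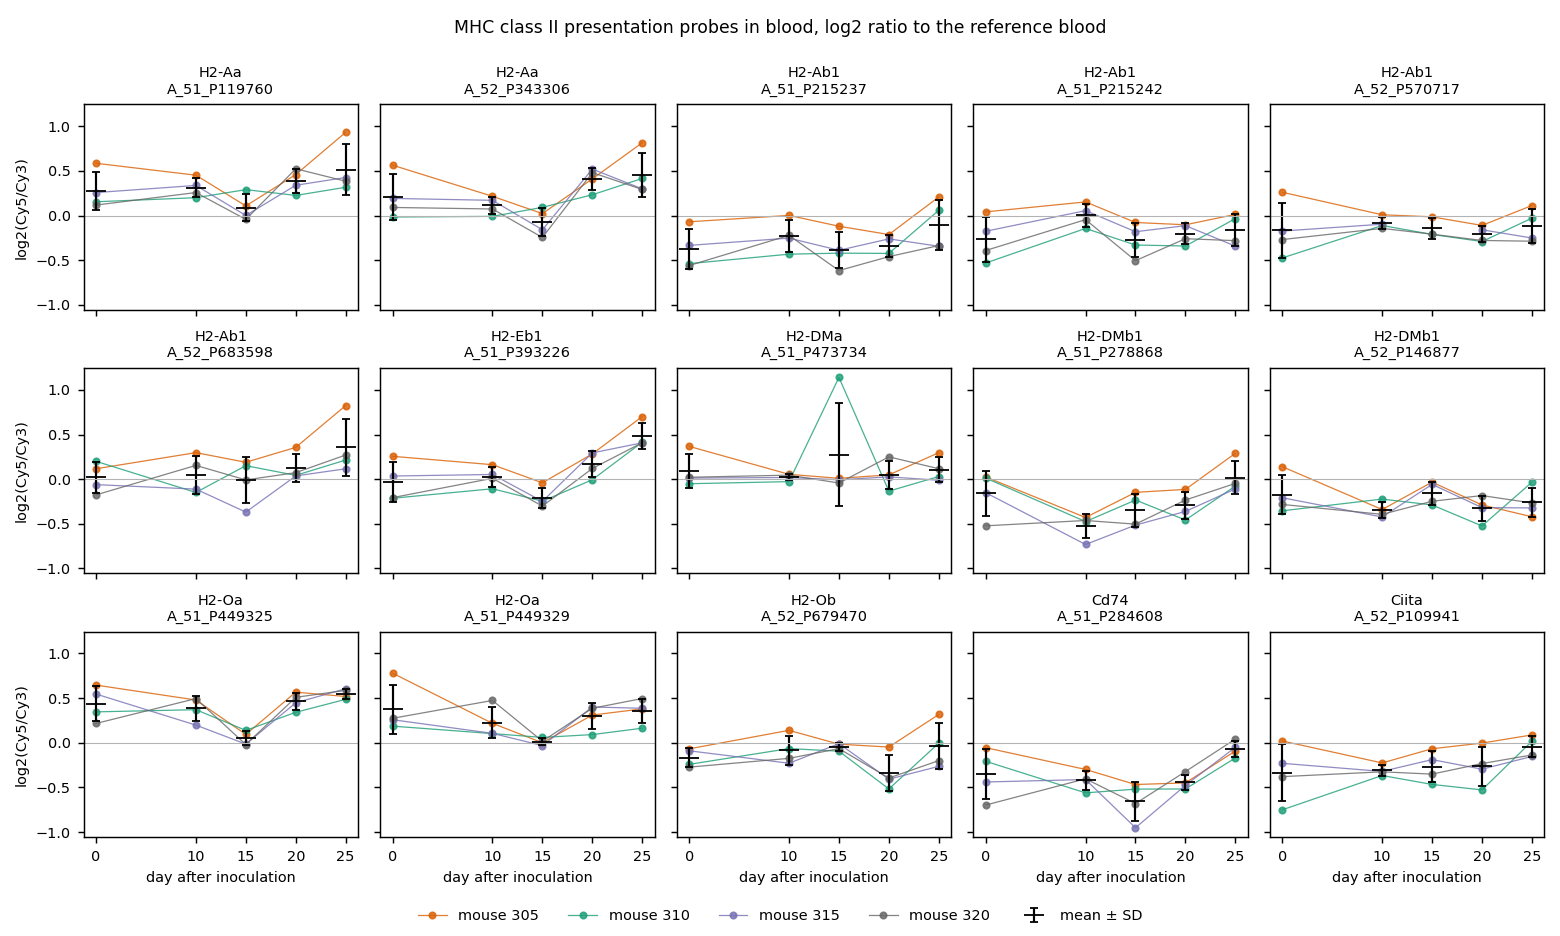
Level of each of the 15 class II probes, as log2(Cy5/Cy3), against the day after inoculation (days 0, 10, 15, 20 and 25); coloured points and lines are the 4 mice and black bars the mean ± SD of a day. The probes of H2-Eb1, Cd74, H2-Aa and H2-Oa dip on day 15, and 1 mouse stands alone for H2-DMa on day 15 at 1.14.

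The antigen-binding chains come first. H2-Eb1, the beta chain of I-E, was read by 1 probe (A_51_P393226). In the array design that probe carries the name H2-Eb1 but the description of an I-A beta mRNA of NOD mice, so which of both beta chains it detects is uncertain. In mice 305, 310, 315 and 320, in that order, its level was 0.26, -0.21, 0.03 and -0.21 on day 0; 0.16, -0.11, 0.05 and 0.01 on day 10; -0.04, -0.25, -0.25 and -0.30 on day 15; 0.28, -0.01, 0.29 and 0.12 on day 20; and 0.70, 0.41, 0.41 and 0.41 on day 25. The 4 mice of day 25 lay above every other array of the series, and 3 of the 4 mice of day 15 held its lowest values.

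Day 25 exceeded day 0 for this probe by 0.52 (SE 0.10, 1.43-fold, n = 4 mice per day; limma adjusted p = 0.0492), with all 4 mice higher. It was the 1 of 15 member probes called in that comparison, where 0.182% of all probes were called. The change stayed between 0.35 and 0.84 under all 12 other settings but passed the threshold in 6 of them, and it passed in 3 of the 20 fits that each left out 1 array (without mouse 305 on day 0, or mouse 310 on day 20 or day 25; adjusted p from 0.00841 to 0.178 over all 20). Day 25 also exceeded day 20, within 1 scan date, by 0.31 (SE 0.10; limma adjusted p = 0.0368), again in all 4 mice and without overlap. That call ended without mouse 310 or 320 on day 20 and without mouse 305 or 315 on day 25 (adjusted p up to 0.122).

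H2-Aa, the alpha chain of I-A, had 2 probes. For A_52_P343306 the level in mice 305, 310, 315 and 320 was 0.56, -0.02, 0.19 and 0.09 on day 0; 0.22, -0.01, 0.17 and 0.07 on day 10; 0.02, 0.09, -0.16 and -0.25 on day 15; 0.41, 0.23, 0.52 and 0.48 on day 20; and 0.82, 0.42, 0.30 and 0.29 on day 25. Every mouse was higher on day 20 than any mouse on day 15. The difference of 0.48 (SE 0.12, n = 4) had an adjusted p of 0.115 in limma and was not called. The second probe, A_51_P119760, ran the same way by 0.30 (SE 0.12; limma adjusted p = 0.246), with 3 of 4 mice higher and overlapping groups. From day 0 to day 25 the 2 probes changed by 0.25 and 0.24, with 95% intervals from -0.01 to 0.51 and from -0.02 to 0.50.

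H2-Ab1, the beta chain of I-A, was read by 4 probes, and they fall into 2 kinds. Of these, 3 (A_51_P215237, A_51_P215242 and A_52_P570717) followed each other across the mice of a day, with correlations of deviations from the day mean of 0.85 to 0.93 over the 20 arrays. The remaining one, A_52_P683598, followed them at 0.32 to 0.58 and followed the H2-DMb1 probe A_51_P278868 at 0.81; these are descriptions over arrays that share 1 reference.

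The day 25 mean of A_52_P683598 was 0.36 ± 0.32 (SD, n = 4) and its day 0 mean 0.02 ± 0.17, a change of 0.34 (95% interval 0.02 to 0.65; limma adjusted p = 0.246) that all 4 mice showed. The other 3 probes changed by 0.27, 0.10 and 0.05 over the same span, and the interval of the smallest ran from -0.20 to 0.30. No H2-Ab1 probe was called in any of the 7 comparisons between days. One spot of A_52_P570717, on day 15 in mouse 315, was marked non-uniform by the scanner software and left out, so that day has n = 3 there.

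The probe A_51_P215237 was spotted 10 times on each array, which shows the noise between spots of 1 hybridisation, but not that of labelling or of a second array. The SD between its 10 spots had a median of 0.0518 over the 20 arrays, from 0.0265 to 0.174, while the SD between mice of 1 day was 0.209 (pooled over days). The spots agreed less on day 20 (SD 0.117 to 0.174) than on days 10 and 15 (SD 0.0265 to 0.0543). On day 0 the mean of the 10 spots was -0.07 in mouse 305, -0.54 in mouse 310, -0.33 in mouse 315 and -0.56 in mouse 320. Mouse 305 was thus the highest before any tumour cells were given. Each mouse had 1 array a day, so the spot SD is no error for a difference between mice.

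**Figure D2:**
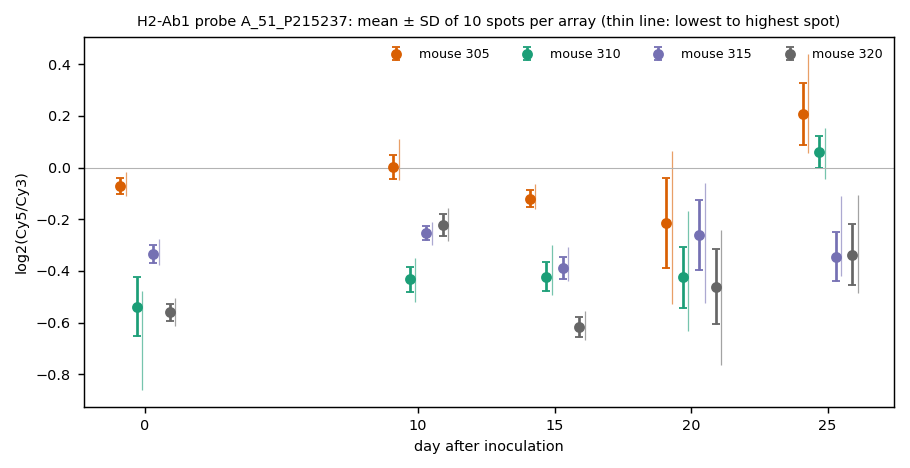
Level of H2-Ab1 probe A_51_P215237, as log2(Cy5/Cy3), in each array by day; points are the mean of 10 spots, bars their SD, and thin lines the lowest to the highest spot. Mouse 305 lies above the other mice on every day, and the bars run from 0.117 to 0.174 on day 20 and from 0.0265 to 0.0492 on day 10.

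The invariant chain Cd74, the chaperone on which class II chains assemble, followed a course like that of H2-Eb1. Its level in mice 305, 310, 315 and 320 was -0.05, -0.21, -0.44 and -0.70 on day 0; -0.30, -0.56, -0.41 and -0.40 on day 10; -0.47, -0.52, -0.95 and -0.68 on day 15; -0.45, -0.52, -0.48 and -0.32 on day 20; and -0.09, -0.17, -0.05 and 0.04 on day 25. All 4 mice of day 25 lay above all 4 of day 20, while day 0 spread over most of the range. Cd74 rose from day 20 to day 25 by 0.37 (SE 0.12, n = 4; limma adjusted p = 0.0282). Against day 0 the day 25 change was 0.28 (SE 0.12; limma adjusted p = 0.213), with 3 of 4 mice higher. The rise from day 20 ended as a call without mouse 310 or 315 on day 20 and without mouse 305, 315 or 320 on day 25 (adjusted p from 0.012 to 0.068 over the 20 fits with 1 array left out), and its size went from 0.34 to 0.41 in those fits. Over 13 other settings the size ran from 0.10, with scaling between arrays, to 1.12, with median centring in place of loess, and 10 kept the call.

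Cd74 and H2-Eb1 were the 2 of 15 member probes called between days 20 and 25, where 23% of all kept probes were called. All 15 probes lay above 0 in that comparison, with a median change of 0.13 against 0.03 for all probes. With mouse as a fixed block 4 of the 15 were called, all higher, beside 2341 of all 20920 probes called higher and 2744 lower. Without mouse 305 on day 25 the count above 0 was 11 of 15 (median 0.09) and without mouse 310 on day 20 it was 12 of 15 (median 0.07), with no member called in either case. Under the 12 other settings 14 or 15 of the 15 probes stayed above 0 (9 of 9 where each gene had 1 probe). The ratio written by the scanning software put 8 of 15 above the median of all probes, 1 probe per gene 9 of 9, and the other settings 12 or more of 15.

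**Figure D3:**
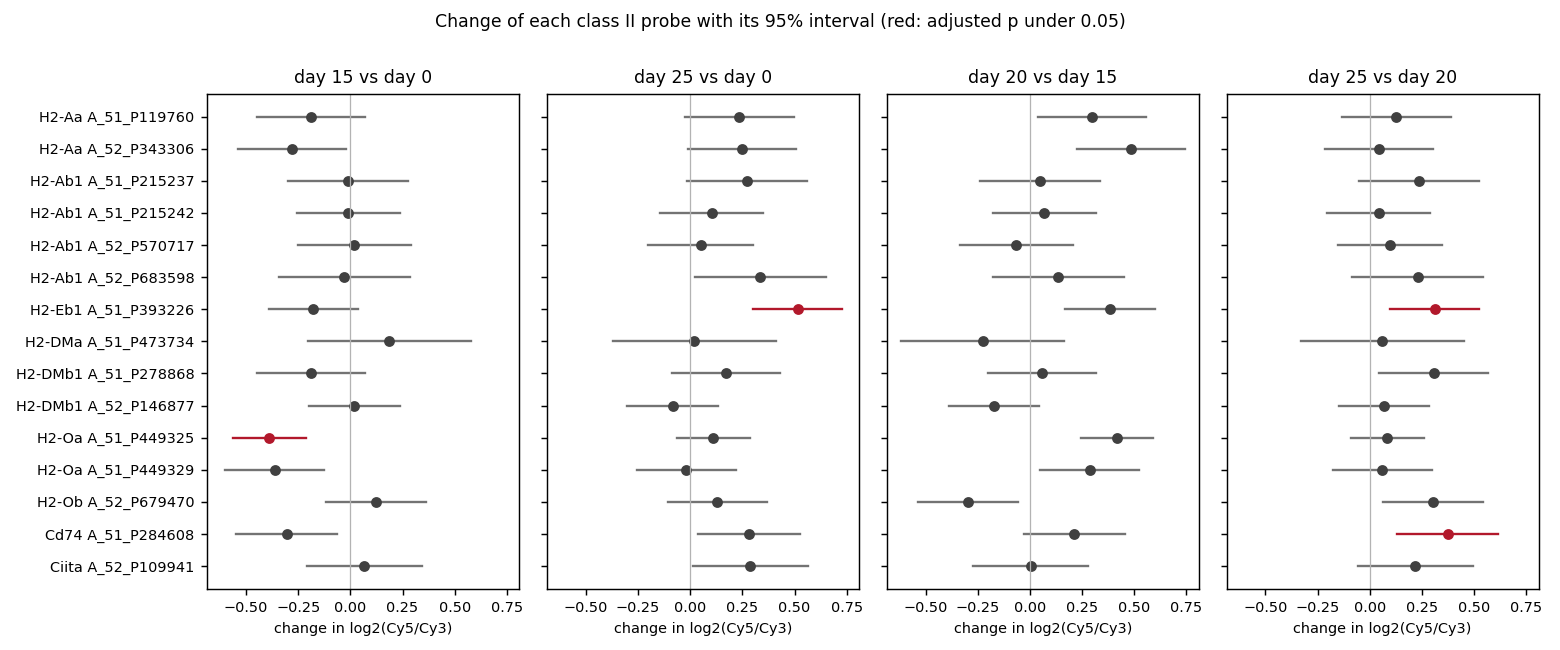
Change in log2(Cy5/Cy3) of each of the 15 probes (points) with its 95% interval (lines) for day 15 against day 0, day 25 against day 0, day 20 against day 15 and day 25 against day 20; red marks a limma adjusted p under 0.05. Between days 20 and 25 all 15 points lie right of 0, and Cd74 (0.37) and H2-Eb1 (0.31) are red.

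H2-O, the inhibitor of H2-DM, was read by 2 probes of H2-Oa and 1 of H2-Ob. For H2-Oa probe A_51_P449325 the level in mice 305, 310, 315 and 320 was 0.65, 0.35, 0.55 and 0.22 on day 0; 0.48, 0.37, 0.20 and 0.49 on day 10; 0.09, 0.14, -0.01 and -0.02 on day 15; 0.57, 0.34, 0.45 and 0.51 on day 20; and 0.52, 0.49, 0.61 and 0.59 on day 25. The 4 arrays of day 15 lay below the other 16, and the other days overlapped with each other. The second probe, A_51_P449329, was also lowest on day 15, with levels from -0.03 to 0.06 there and from 0.09 to 0.78 on the other days.

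H2-Oa fell by 0.39 from day 0 to day 15 at A_51_P449325 (SE 0.083, 0.763-fold, n = 4; limma adjusted p = 0.00870), the 1 member probe of 15 called in that comparison against 5.57% of all probes. At A_51_P449329 the change was -0.36 (SE 0.11; limma adjusted p = 0.0728), also without overlap. The call at A_51_P449325 held in all 20 fits that each left out 1 array and in 9 of 12 other settings, with changes from -1.71 to -0.17. Taken as the ratio that the scanning software wrote, the change at this probe was -0.17 (limma adjusted p = 0.212). The median of all probes was -0.20 there, so relative to that median this probe was not lower. At A_51_P449329 the change ran from -1.43 to -0.32 over 11 other settings, that ratio among them, and was called in 7 of them.

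Between days 15 and 20, within 1 scan date, H2-Oa differed by 0.42 (SE 0.083, limma adjusted p = 0.0519), just outside the threshold. No mouse of one day overlapped the other. Only day 15 has a grid file named in its headers, and its part was not tested. None of the 15 member probes was called between these days in limma, against 0.139% of all probes. An unadjusted p under 0.05 in limma was found for 6 of the 15 and for 3510 of all 20920 probes. With mouse as a fixed block 2 were called, beside 44 of all probes called higher and 11 lower. With mouse as a random block it was 1, beside 40 higher and 4 lower. With the 12 arrays of that scan date alone, a setting chosen after seeing the data, it was 1, the H2-Oa probe (limma adjusted p = 0.0234). How many of all probes were called in that fit is not given here, so this call has no share to be set against. The change of H2-Ob, the beta chain of H2-O, over these days was -0.30 (SE 0.11; limma adjusted p = 0.223), with all 4 mice lower; it did not pass, and the difference between the chains was not tested. Its day means were -0.17 on day 0, -0.08 on day 10, -0.05 on day 15, -0.34 on day 20 and -0.04 on day 25, and its Cy5 signal above background went down to 43.9. From day 20 to day 25 H2-Ob changed by 0.30 (SE 0.11, limma adjusted p = 0.0606), with all 4 mice higher and overlapping groups. That change was not called, but was past the threshold in 2 of 13 other settings and 3 of 20 fits with 1 array left out.

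No probe of H2-DM, which loads peptide, was called in a comparison between days, though 1 H2-DMb1 probe was close to the threshold. H2-DMa lay between -0.13 and 0.37 on 19 of 20 arrays and at 1.14 in mouse 310 on day 15, where the other 3 mice lay between -0.04 and 0.01. Its day 25 change against day 0 was 0.02, with a 95% interval from -0.37 to 0.41.
H2-DMb1 had 2 probes. At A_51_P278868 the level in mice 305, 310, 315 and 320 was 0.02, 0.01, -0.15 and -0.52 on day 0; -0.43, -0.48, -0.73 and -0.46 on day 10; -0.15, -0.23, -0.51 and -0.50 on day 15; -0.11, -0.46, -0.36 and -0.23 on day 20; and 0.29, -0.08, -0.11 and -0.05 on day 25. Day 10 lay below day 0 in 3 of 4 mice, by 0.37 on average (SE 0.12; limma adjusted p = 0.0645), and day 25 above day 20 in all 4, by 0.31 (SE 0.12; limma adjusted p = 0.0793); neither was called. The day 10 change was called in 5 of 12 other settings (adjusted p from 0.0184 to 0.513) and, with 1 array left out, without mouse 320 on day 0 (-0.49; adjusted p = 0.00754) or mouse 305 on day 25 (adjusted p = 0.0466). The day 25 change was called in 1 of 13 other settings and 2 of 20 fits with 1 array left out. At A_52_P146877 the 5 day means stayed between -0.35 and -0.16, the F test was not passed (adjusted p = 0.384), and day 10 was again the lowest, with a change from day 0 of -0.17 (SE 0.10; limma adjusted p = 0.310). H2-DMb2, a near-identical neighbour whose RNA the H2-DMb1 probes may also detect, was well above background on all 20 arrays with day means from -0.15 to -0.0027 (F test adjusted p = 0.551).

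Ciita, the transactivator, had day means of -0.34 ± 0.32, -0.31 ± 0.06, -0.27 ± 0.18, -0.26 ± 0.22 and -0.05 ± 0.12 on days 0, 10, 15, 20 and 25 (SD, n = 4). All 4 mice were higher on day 25 than on day 0, by 0.29 on average (95% interval 0.01 to 0.56; limma adjusted p = 0.253), and no comparison of Ciita was called. On day 0 the mice ranged from -0.75 in mouse 310 to 0.02 in mouse 305, wider than the difference between any 2 days. Across the mice of a day, Ciita followed the 3 alike H2-Ab1 probes at correlations of 0.72 to 0.86 over 20 arrays, H2-Eb1 at 0.80 and A_52_P683598 at 0.21, again as a description.

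H2-Ea, the alpha chain of I-E, carries a deletion in the H-2b haplotype of C57Bl/6 mice and so serves as a check of background. Its probe was well above background on 0 of 20 arrays in either channel, with a Cy5 signal above local background of -4.0 to 50.2.

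The earlier days gave few calls among the members. On day 10 none of the 15 probes was called against day 0 in limma, against 11.1% of all probes. There 2 of the 15 and 5581 of all 20920 probes had an unadjusted p under 0.05 in limma. Of the 15, 8 lay above 0 and 7 below, with changes from -0.37 to 0.27. On day 20 none was called against day 0, while 3.14% of all probes were. None of the 15 had an unadjusted p under 0.05 in limma, while 4867 of all 20920 probes did. The changes ran from -0.17 to 0.21, and 8 of 15 lay above 0. Between days 10 and 15 none was called, against 0.00956% of all probes. An unadjusted p under 0.05 in limma was found for 3 of the 15 and for 2065 of all 20920 probes. In every measured mouse 5 member probes were lower on day 15, 1 of them (H2-Ab1 A_52_P570717) in 3 mice. How many of all probes were so was not counted. With the mouse as a fixed block, 2 members were called on day 10, beside 1313 of all probes called higher and 1532 lower. On day 20 it was 1 member, beside 886 of all probes higher and 611 lower. With median centring in place of loess all 15 lay below 0 on days 10 and 20. Of these, 12 were called on day 10, beside 9217 of all probes called lower and 15 higher. None was called on day 20, beside 3 of all probes lower and 0 higher. H2-Eb1, for one, was then at -1.42 on day 10 and -0.69 on day 20, against 0.06 and 0.21 with loess.

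Mouse 305 most often had the highest class II levels, on day 0 as well as after the tumour cells were given. It was the highest of the 4 mice for 14 of 15 probes on day 0, 12 on day 10, 8 of 14 on day 15, 8 on day 20 and 11 on day 25. Averaged over the 5 days it was highest for 13 of the 14 probes measured on every array. The lowest mouse changed from day to day: mouse 310 was lowest for 10 probes on day 10 and 13 on day 20, and mouse 315 for 8 on day 25. Of 105 pairs of member probes, 103 correlated above 0 in their deviations from the day means, with a median of 0.506 and a range from -0.189 to 0.929 over the 20 arrays. All probes of an array share its RNA and its normalization.

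A profile of the antigen-binding chains and invariant chain, the mean of the brightest probes of H2-Aa, H2-Ab1, H2-Eb1 and Cd74 after centring each, had day means of -0.05 ± 0.19, -0.07 ± 0.12, -0.24 ± 0.16, 0.06 ± 0.09 and 0.30 ± 0.17 (SD, n = 4) on days 0, 10, 15, 20 and 25. The 4 values of day 25, from 0.18 to 0.55, met those of day 0 in mouse 305 alone, at 0.21. Among 15152 other genes, those whose levels followed this profile most closely over the 20 arrays were Cd79b, a signalling chain of the B cell receptor (r = 0.942), Ly6d, a surface marker of B lineage cells (r = 0.941), AF152371 (r = 0.933), Blnk, an adaptor of B cell receptor signalling (r = 0.913), Naca (r = 0.897), Ms4a1, which encodes CD20 (r = 0.892), Gimap6 (r = 0.892) and the elongation factor Eef1g (r = 0.891). Within days, in deviations from the day means, these correlations were 0.676 (Gimap6) to 0.893 (Ly6d). They describe 20 arrays of 4 mice that share a reference.

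B cell markers are given beside the class II values, and their part in the class II changes was not tested. Of the 15 genes, all measured, none was called on days 10 and 15 against day 0 and 1, Fcer2a, was called higher on day 20 and on day 25. From day 20 to day 25, Cr2 and Bank1 were called higher and Cd79a lower (limma adjusted p = 0.0428, 0.0450 and 0.0418), where 23% of all probes were called. Their mean level lay between -0.34 and -0.01 on day 0, -0.35 and -0.19 on day 10, -0.36 and -0.20 on day 15, -0.21 and 0.03 on day 20, and -0.04 and 0.25 on day 25. Mouse 305 had the highest mean on all 5 days. On day 25 the list's median change against day 0 was 0.22, with 11 genes above 0 and 4 below (Pax5 at -0.20, Cd37 at -0.09, Cd79a at -0.02 and Ebf1 at -0.0041), beside 0.17 for the 15 class II probes and -0.00069 for all probes. Single arrays carried much of both values: without mouse 305 on day 25 the medians were 0.08 for the list and 0.10 for class II, and without mouse 320 on day 0 they were 0.15 and 0.10. From day 0 to day 15 the median change of the B cell list was -0.01, and that of the class II probes -0.03. These were -0.21 and -0.40 with scaling between arrays, -0.32 and -0.14 with plain subtraction, and -0.06 and -0.10 without mouse 305 on day 15. The list holds 1 probe per gene, while the class II values above count every probe. With 1 probe per gene for class II too (9 probes), its day 15 median was -0.18, against -0.01 for the list. On day 25 the class II median was then 0.25, against 0.22 for the list.

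The B cell genes with the lowest F test p were Fcrla, an Fc receptor-like protein of B cells (adjusted p = 0.00198), Fcer2a, which encodes CD23 (adjusted p = 0.00390), and Blnk (adjusted p = 0.00395). Fcer2a was higher than on day 0 by 0.27 on day 20 (SE 0.066; limma adjusted p = 0.0313) and by 0.37 on day 25 (SE 0.066; limma adjusted p = 0.0364). Blnk changed by -0.52 from day 0 to day 15 (SE 0.18; limma adjusted p = 0.108) and by 0.47 to day 25 (SE 0.18; limma adjusted p = 0.176), neither called. Of other cells that carry class II, the dendritic cell list (6 of 10 genes kept) had a median change of -0.07 from day 0 to day 25 with none called. The monocyte list had -0.04 with none called. Its 11 names were all kept and stand for 10 genes, since Adgre1 and Emr1 are the same gene. On day 15, where 5.57% of all probes were called, the dendritic cell list had 5 of 6 genes above 0, a median change of 0.08 and 1 gene called higher (Zbtb46, by 1.13; limma adjusted p = 0.00303). The monocyte list had 2 of 10 genes called lower and a median change of -0.21 on that day, and the T cell list 5 of 13 lower and -0.17. The plasma cell list (7 names, with Jchain and Igj as the same gene, and 5 genes kept, without Tnfrsf17) had no gene called on day 15 or 25. NK cell (8 of 8 kept), platelet (7 of 7 kept) and liver and hepatoma (4 of 8 kept) lists had none called on days 15 and 25 against day 0. Of the 10 mature neutrophil markers, 7 were called lower on day 15 (median change -0.82) and 2 on day 25 (-0.50), and all 10 lay below 0 both times. The erythroid list had 1 of 7 called higher on day 15 (0.70) and none on day 25, where 6 of 7 lay below 0 and the median was -0.87. On day 25, 0.182% of all probes were called, and the part of these lists in the class II values was not tested.

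**Figure D4:**
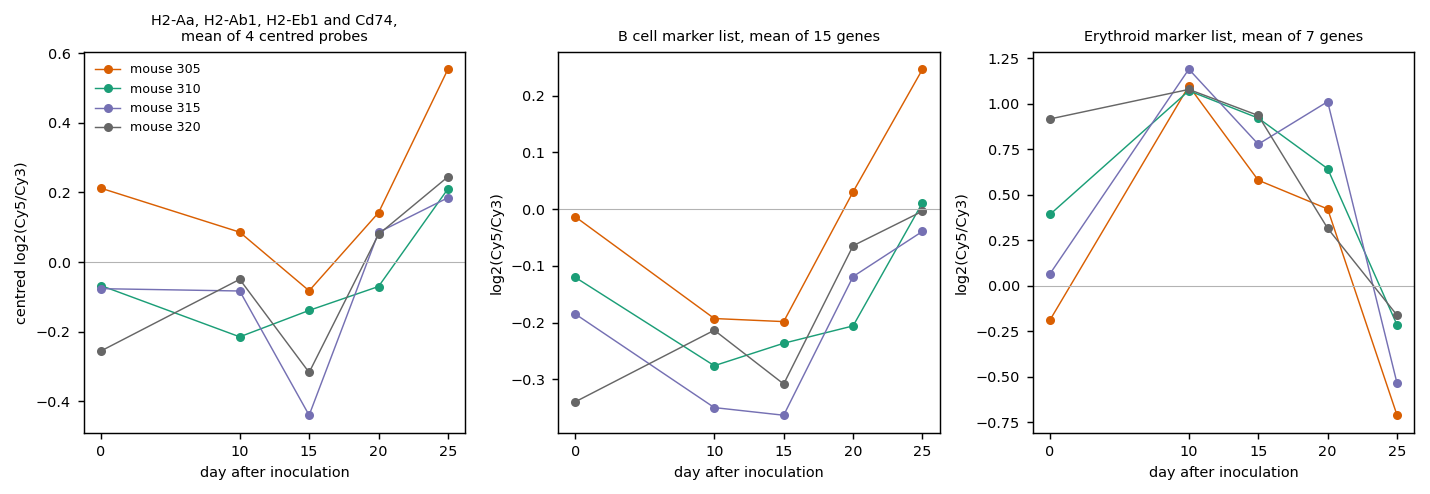
From left to right, the centred mean log2(Cy5/Cy3) of 4 class II probes, the mean log2(Cy5/Cy3) of the 15 B cell markers and that of 7 erythroid markers, each against the day after inoculation, with 1 line per mouse. The class II and B cell lines reach their highest values on day 25 (0.55 and 0.25 in mouse 305), while the erythroid lines end at their lowest, from -0.71 to -0.16.

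Beyond the members, 24 of 28 genes of the wider pathway were measured (H2-Ea, Cd4, Lag3 and Cd80 were too dim), and 7 differed over the 5 days in limma's F test, 29.2% against 27% of all probes. On day 10, 3 were called higher and 2 lower than on day 0, where 11.1% of all probes were called; on day 15, 2 higher and none lower, against 5.57%; on days 20 and 25 none, against 3.14% and 0.182%. From day 20 to day 25, 7 were called higher and 3 lower, against 23% of all probes. The median changes stayed between -0.07 and 0.10 over the 7 comparisons.

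The lysosomal protease Ctsb rose by 0.90 on day 10 (SE 0.22; limma adjusted p = 0.0154) and 0.87 on day 15 (limma adjusted p = 0.0245) and fell by 1.10 from day 20 to day 25 (limma adjusted p = 0.00405). Marchf8, a ubiquitin ligase of the family that takes class II off the surface, rose by 0.60 on day 10 (SE 0.15; limma adjusted p = 0.0178) and 0.64 on day 15 (limma adjusted p = 0.0159) and fell by 0.91 from day 20 to day 25 (limma adjusted p = 0.00188). Both ran opposite to H2-Eb1 and Cd74 in the last interval. The erythroid marker list (10 names, some of them older names of the same gene, and 7 genes kept, without Alas2) moved in the same direction as these 2. Its median change was 0.85 on day 10 (4 genes called higher) and -0.91 from day 20 to day 25 (6 called lower), and its part was not tested.

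The other named genes of the pathway were divided. Rfxank, a subunit of the RFX complex that binds the X box, rose by 0.42 on day 10 (SE 0.11; limma adjusted p = 0.0183) and fell by 0.43 from day 20 to day 25 (limma adjusted p = 0.0109). Marchf1, the ligase that removes class II in B cells and dendritic cells, fell by 0.35 on day 10 (SE 0.10; limma adjusted p = 0.0352) and rose by 0.31 from day 20 to day 25 (limma adjusted p = 0.0387). Ctss, the protease that cuts the invariant chain, rose by 0.47 in that last interval (SE 0.17; limma adjusted p = 0.0499), and Ctsd, another lysosomal protease, by 0.55 (SE 0.13; limma adjusted p = 0.00763). The mature neutrophil list, whose 10 genes were all measured, had 8 genes called lower on day 10 (median change -0.86) and 3 higher from day 20 to day 25 (0.43), and its part in these values was not tested.

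Within an array, the ratio of 2 members shows whether they changed unequally. H2-Aa exceeded Cd74 by 0.56 ± 0.26 on day 0, 0.53 ± 0.05 on day 10, 0.58 ± 0.16 on day 15, 0.85 ± 0.11 on day 20 and 0.52 ± 0.29 on day 25 (log2, relative to the reference; SD, n = 4). The ratio was thus widest on day 20, when the H2-Aa probe was at 0.41 while Cd74 lay at -0.44, close to its day 10 mean of -0.42. H2-DMb1 against H2-Aa stood at -0.37 ± 0.29 on day 0, -0.64 ± 0.19 on day 10, -0.28 ± 0.08 on day 15, -0.70 ± 0.15 on day 20 and -0.44 ± 0.08 on day 25. The groups of days 15 and 20 do not overlap in this ratio, since the highest array of day 20 was at -0.52 and the lowest of day 15 at -0.36. H2-Ab1 against Cd74 moved less, between 0.37 ± 0.15 on day 0 and 0.65 ± 0.04 on day 15. These ratios were not tested.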

How the data were processed

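Blood RNA of 4 mice on 5 days was hybridised in Cy5 against a common Cy3 reference on 20 Agilent arrays. What the authors deposited per array is the scanner output of Agilent Feature Extraction 9.1.3.1 (per the submitters' processing notes): for every spot and dye an unnormalized intensity and its local background. The same files give a log10 ratio (Cy5 over Cy3) normalized by that software, per the file headers, which equals the series matrix for 900360 of 900360 values and served as an alternative. Other steps of the authors are not given in the sources used here. Groups are the labelled days; the number of arrays limits the precision.

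Here limma 3.58.1 (R 4.3.3) corrected background with normexp (offset 50) and normalized each array by loess, with control spots (1486 positive or structural, 153 negative) and spots marked non-uniform (10 to 248 per array) at weight 0; non-uniform spots were then left out. Spots of a probe were averaged, and 20920 probes well above background in Cy5 on at least 4 arrays and measured on at least 3 arrays of each day were kept. The 5 day means were fitted over all 20 arrays with no block, with 7 contrasts, an F test over the contrasts with day 0, and Benjamini-Hochberg adjustment over all probes. For lists the brightest probe stood for a gene. Probes were named by accession (23374), symbol (6733) or synonym (2919) through RefSeq names of GRCm38.p6, or kept the file's name (8148). The fit was run on simulated data with noise drawn independently for each probe and no shared effect of array, slide or mouse. For day 25 against day 0 it called 83 of 100 probes changed by 0.5 and 98 of 100 changed by 1. Of the unchanged probes, 7 were called. The simulation does not show how the fit fares where probes of an array vary together.

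Mouse numbers pair the arrays because the same animals were sampled throughout. Deviations from day means correlated at 0.0802 on average over 40 same-mouse pairs of arrays and at -0.0272 over 120 other pairs. The text names every member probe, H2-Ea, H2-DMb2, the 6 pathway and 3 B cell genes with the lowest F test p past 0.05, and the 8 genes most like the profile; a few arrays were singled out after their values were seen. Members and lists were chosen with earlier results of these data known. Alternatives covered background, normalization, filter, probe choice, block, array weights and each array left out.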

Additional observations from a re-analysis of the deposited data

Results flagged for a closer look

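In 6 of 75 groups of mice (15 probes on 5 days), 1 mouse stood far from the others by Dixon's criterion. The groups held 4 mice, but 3 for H2-Ab1 probe A_52_P570717 on day 15. Chance gives about 1 in 20 such groups if they are independent, which probes of the same arrays are not. Mouse 305 was high for H2-Eb1 on day 25 at 0.70 (others 0.41 each), H2-DMb1 probe A_51_P278868 on day 25 at 0.29 (others -0.11 to -0.05) and H2-Oa probe A_51_P449329 on day 0 at 0.78 (others 0.19 to 0.27). H2-Ab1 probe A_52_P683598 was also high in mouse 305, on day 20, at 0.36 (others 0.04 to 0.07). H2-DMa on day 15 was at 1.14 in mouse 310 (others -0.04 to 0.01). H2-DMb1 probe A_51_P278868 on day 10 was at -0.73 in mouse 315 (others -0.48 to -0.43). All values are log2(Cy5/Cy3).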

How the results depend on the processing

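Counts below are member probes of 15 with an adjusted p under 0.05 in limma (9 where 1 probe stood for a gene). Pairs of numbers in brackets are all probes called higher and lower in the same fit, of 20920 unless another total is given. For the F test over the 5 days only a range over settings is given, further below. Over the 5 days the count was 5; it was 8 with median centring in place of loess, 1 with Aquantile and scaling between arrays and 10 with the Cy5 channel alone. For day 10 against day 0 it was 0 (929, 1390). It was 2 without background correction (3292, 4935), 12 with median centring (15, 9217) and 1 with the scanner's own ratio (2335, 4027). Cy5 alone gave 3 (1405, 3653) and a replicate block, with mouse as a fixed term, gave 2 (1313, 1532). With only probes well above background on all 20 arrays it was 1 (1132, 1658 of 12679). For day 15 against day 0 it was 1 (436, 729). It was 3 without background correction (3476, 4775), 3 with plain subtraction (3240, 4764) and 0 with median centring (0, 3). It was 2 each with the scanner's ratio (3210, 5941), Cy5 alone (3556, 5881) and the stricter filter (513, 845 of 12679). The fixed replicate block (599, 786) and array weights (1142, 1948) also gave 2 each. For day 20 against day 0 it was 0 (257, 400), and 1 with the fixed block (886, 611). For day 25 against day 0 it was 1 (14, 24). It was 0 with plain subtraction (4, 9), median centring (0, 0), scaling (272, 284) and the scanner's ratio (101, 704). No filter (3, 9 of 41142) and array weights (0, 0) also gave 0. For day 15 against day 10 it was 0 (2, 0), but 1 with Cy5 alone (2598, 1680) and 4 with array weights (2297, 1348). For day 20 against day 15 it was 0 (26, 3), but 4 with plain subtraction (2235, 1766), 3 with Cy5 alone (1784, 1372) and 2 with the fixed block (44, 11). It was 1 each with scaling (535, 1479), the stricter filter (45, 6 of 12679), 1 probe per gene (37, 4 of 15161) and the random block (40, 4). The arrays of 1 scan date, chosen after seeing the data, also gave 1, and their calls over all probes are not given here. For day 25 against day 20 it was 2 (2241, 2570), but 0 with median centring (0, 0), scaling (41, 93) and array weights (0, 0). It was 1 with the scanner's ratio (1528, 2380) and 4 with the fixed block (2341, 2744). With each array left out in turn the counts ran from 4 to 6 over the 5 days, 0 to 1 (day 10 against 0), 1 to 2 (day 15 against 0), 0 to 0 (day 20 against 0), 0 to 1 (day 25 against 0), 0 to 0 (day 15 against 10), 0 to 3 (day 20 against 15; 3 without mouse 305 on day 20) and 0 to 4 (day 25 against 20; 4 without mouse 305 on day 20). Without mouse 305 on day 20, 833 of all probes were called higher and 662 lower for day 20 against 15. For day 25 against 20 it was then 2867 higher and 3211 lower. Mouse as a random block changed no other count. Over all probes tested, the calls under other settings ran from 3564 to 12435 over the 5 days (5651 in the main fit). Against day 0 they ran from 1648 to 9232 on day 10 and from 3 to 9437 on day 15. On days 20 and 25 they ran from 3 to 4973 and from 0 to 2992. For day 15 against 10 they reached 4278, for day 20 against 15 they reached 4001, and for day 25 against 20 they reached 5501.

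Of 1248 values of single probes under other settings, 122 had the opposite sign to that reported, and of 2100 values with 1 array left out, 79 did. With a call on either side this was so in 6 cases, all for day 10 against day 0: with median centring H2-Aa A_51_P119760 was at -1.33, H2-Ab1 A_51_P215237 at -1.32, H2-Ab1 A_52_P683598 at -1.60, H2-Eb1 at -1.42 and Ciita at -1.40, and with Cy5 alone H2-Ab1 A_52_P683598 was at -0.85. Median centring turned 8 of 15 probes on day 10, 5 on day 15, 8 on day 20 and 5 on day 25, each against day 0. The median of all probes, -0.02 on day 10, -0.01 on day 15, -0.02 on day 20 and 0.03 from day 20 to day 25, was -0.40, -0.29, -0.22 and 0.24 with median centring. On days 10 and 15 it was -0.14 and -0.15 with plain subtraction and -0.18 and -0.20 with the scanner's ratio. Calls over all probes moved too: 2319 on day 10 became 810 to 3334 with 1 array left out, 657 on day 20 became 109 to 3378, and 38 on day 25 became 1 to 2284. The causes were not tested.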

Other observations

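The 4 probes of H2-Ab1 did not follow day 10 alike: A_51_P215242 lay above day 0 by 0.27 (95% interval 0.02 to 0.52) in all 4 mice and A_51_P215237 by 0.15 in all 4, while A_52_P683598 lay above in 2 of 4 mice, by 0.03. The median over the 15 class II probes within each mouse on day 0 was 0.14 in mouse 305, -0.21 in mouse 310, -0.09 in mouse 315 and -0.27 in mouse 320. On day 25 it was 0.30, 0.03, -0.05 and 0.04.

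On day 0, before inoculation, the mean of the 7 erythroid markers also differed between the mice, from -0.19 in mouse 305 to 0.92 in mouse 320, and that of the 10 mature neutrophil markers from 0.53 in mouse 305 to 1.14 in mouse 320. Mouse 305 thus had the highest class II median and the lowest means of both lists on that day.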
